A study of Mus musculus with 15 samples.

Results

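Interferon-stimulated genes are the genes that cells switch on when an interferon binds its receptor. The set described here has 40 listed genes, chosen by name as genes induced by interferon, and 38 of them were measured among 18193 genes on mouse lung arrays. Of those 38, 27 are antiviral genes typical of the type I response, 8 are typical of the interferon-gamma response, and 3 encode ADP-ribosylation proteins that answer to both. Ifi44 and Isg15 were not analysed here. The members were chosen by name, but with earlier results of these data known, so the choice was not blind to the measured values.

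Type I interferons signal through the receptor chains Ifnar1 and Ifnar2 to a complex of STAT proteins with Irf9, which binds interferon-stimulated response elements in promoters. Interferon-gamma signals through Ifngr1 and Ifngr2 to a STAT dimer that binds gamma-activated sites, and it induces Irf1, the guanylate-binding proteins, the immunity-related GTPases and the immunoproteasome. In the lung these genes are best known from the defence of the airway and the alveoli against respiratory viruses.

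RNA of 15 mouse lung samples was hybridised to 15 Affymetrix arrays, 3 in each of 5 groups, all on a mixed strain background and without treatment. At 12 months the groups were wildtype lung and lung tumours of Ptend/dSmad4d/d mice, each tumour array being a piece of 1 single tumour. At 7 months they were wildtype, Ptend/d and Ptend/dSmad4d/d lung, each a piece of whole lung. The labels do not name the promoter or cell type that drove the deletions, nor do they say whether each 7-month array holds RNA of 1 animal, so p-values measure only the spread between these arrays, which may in part be technical. In pieces of tissue, fewer cells of a type and less RNA per cell cannot be told apart.

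The arrays had median intensities between 90.9 and 99.5, and replicate arrays correlated at 0.982 to 0.9957. The 18S rRNA control probe sets read 1121 to 2036 on the tumour arrays against 5492 to 6933 on the 12-month wildtype arrays. All 3 tumour arrays and 1 of the 12-month wildtype arrays had the Y-linked pattern without Xist, the other 2 wildtype arrays had Xist, and 8 of the 9 arrays at 7 months had both. Having both is what RNA of both sexes in 1 sample would give. The exception at 7 months was wildtype array 3, with the Y-linked pattern and Xist at 48.1. No alternative for sex was run on the comparisons within 7 months. Sftpb, the surfactant protein that marks alveolar cells, read 5116 to 9717 over the 15 arrays. All 8 epithelial markers were higher in the tumours (median log2 difference 1.359), while 5 of 8 endothelial, 4 of 10 macrophage and 2 of 10 T and NK cell markers were lower. Their part in the results on interferon genes was not tested beyond the values given with those results.

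Promoter sequence was read for the members independently of the expression values. RefSeq promoter windows, each running from 250 bases before to 50 bases after a start site on GRCm38.p6, were held for 31 of the 40 listed members. The core of the interferon-stimulated response element, searched as GAAANNGAAA on both strands, was present in 15 of those 31 genes (48.4%) against 3.99% of all 27025 genes with a window. It was held by 11 of the 22 type I members and 4 of the 8 gamma type members with a window, 50% of each. The gamma-activated site, searched as TTCNNNGAA, which reads the same on both strands, was in 5 of the 22 type I members (22.7%), in 3 of the 8 gamma type members (37.5%) and in 9.55% of all genes. Both motifs were held by 4 members, and in 1 of them the matches overlapped. Over single windows of this length the shares were 3.44% for the first motif and 8.3% for the second. A match describes letters and does not show that a factor was bound.

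The elements below come from measured members and lie wholly before the start site used for their promoter window, which need not be the outer end of the annotated gene. They are shown because the type I STAT complex acts through this element. Each is written 5′ to 3′ on the strand that carries the core, with the core in capitals. Ifit1 and Ifit3 had their elements 104 and 156 bases before the start, and those of the gamma type genes Irgm1, Igtp, Gbp3 and Gbp2 stood 30, 34, 45 and 59 bases before it. Ifit1, Ifit3 and the gamma type gene Gbp2 carry the same 10 core letters.
Ifit1, chr19:34640775-34640804, minus strand: actgagactgGAAAGTGAAActgaagcctg
Ifit3, chr19:34583363-34583392, minus strand: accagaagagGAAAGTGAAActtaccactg
Oas1a, chr5:120907526-120907555, minus strand: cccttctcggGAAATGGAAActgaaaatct
Oas3, chr5:120777715-120777744, minus strand: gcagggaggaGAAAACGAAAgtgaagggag
Rsad2, chr12:26456553-26456582, plus strand: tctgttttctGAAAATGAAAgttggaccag
Bst2, chr8:71537583-71537612, minus strand: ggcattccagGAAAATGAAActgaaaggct
Stat2, chr10:128270266-128270295, minus strand: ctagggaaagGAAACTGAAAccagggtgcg
Gbp2, chr3:142620594-142620623, minus strand: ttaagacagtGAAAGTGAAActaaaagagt
Gbp3, chr3:142559989-142560018, minus strand: ctgggaaataGAAACTGAAActgtgtcctg
Igtp, chr11:58199512-58199541, plus strand: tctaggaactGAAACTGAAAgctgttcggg
Irgm1, chr11:48871431-48871460, minus strand: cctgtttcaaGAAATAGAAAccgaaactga

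Whole windows follow for the 3 type I members with a window and the lowest p-values in tumours, and for the gamma type member with the lowest. Capitals mark matches to either motif. Ifit1 held 2 core matches, 104 and 85 bases before the start site, and Irgm1 held 2 that overlap, 30 and 24 bases before it. Isg20 held 1 gamma-activated site match and no core match, and Irf7 held neither in this window.
Ifit1, chr19:34640639-34640938, plus strand: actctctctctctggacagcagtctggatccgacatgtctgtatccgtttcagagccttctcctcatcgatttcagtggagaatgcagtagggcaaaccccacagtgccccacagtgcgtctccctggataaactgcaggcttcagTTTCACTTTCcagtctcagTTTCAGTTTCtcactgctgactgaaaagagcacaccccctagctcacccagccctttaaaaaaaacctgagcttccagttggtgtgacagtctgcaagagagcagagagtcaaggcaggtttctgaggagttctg
Irf7, chr7:141266375-141266674, minus strand: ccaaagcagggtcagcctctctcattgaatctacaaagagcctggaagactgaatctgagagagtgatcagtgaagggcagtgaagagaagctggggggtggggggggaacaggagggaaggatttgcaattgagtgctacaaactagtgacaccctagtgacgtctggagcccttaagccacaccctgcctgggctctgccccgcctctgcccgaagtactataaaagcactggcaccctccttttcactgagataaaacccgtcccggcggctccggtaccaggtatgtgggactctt
Isg20, chr7:78913174-78913473, plus strand: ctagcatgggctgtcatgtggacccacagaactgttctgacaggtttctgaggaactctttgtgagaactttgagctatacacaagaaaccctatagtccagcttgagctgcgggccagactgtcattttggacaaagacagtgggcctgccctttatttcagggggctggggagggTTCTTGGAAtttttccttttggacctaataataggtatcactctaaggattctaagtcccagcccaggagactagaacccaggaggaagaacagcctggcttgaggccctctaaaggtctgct
Irgm1, chr11:48871371-48871670, minus strand: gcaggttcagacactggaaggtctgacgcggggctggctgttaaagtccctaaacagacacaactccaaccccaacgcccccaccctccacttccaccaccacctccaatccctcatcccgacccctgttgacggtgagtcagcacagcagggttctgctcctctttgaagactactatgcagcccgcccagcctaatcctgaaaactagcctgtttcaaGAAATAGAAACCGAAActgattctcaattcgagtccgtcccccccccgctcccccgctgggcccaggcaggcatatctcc

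In Ptend/dSmad4d/d tumours at 12 months, many type I antiviral genes were higher than in wildtype lung, while of the gamma type genes 2 were lower and 1 was higher. Of the 27 type I members, 13 were higher and 0 lower at an adjusted p under 0.05. Of the 8 gamma type members, Irgm1 was higher and Gbp2 and Psmb9 were lower, and 0 of the 3 ADP-ribosylation members passed in limma (2 at an unadjusted p under 0.05). The median log2 fold change was 0.487 over the type I members, -0.279 over the gamma type members and 0.008 over all genes. Across all genes 9.23% were called higher and 6.02% lower. Adjusted p-values come from limma over all 18193 genes, and a log2 fold change here is a difference of log2(intensity + 16), which understates the change of dim genes.

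The induced transcription factor Irf7, which amplifies the type I response, read 285, 249 and 318 on the 3 wildtype arrays and 836, 628 and 941 on the 3 tumour arrays. Every tumour array was above every wildtype array, with a 2.7-fold difference between the groups (log2 fold change 1.43 ± 0.17 SE, adjusted p = 0.00781). Irf9, the DNA-binding partner in the type I STAT complex, read 549, 551 and 535 in wildtype and 660.3, 619 and 781 in tumours. Its groups did not overlap but it missed the threshold (log2 fold change 0.32 ± 0.10 SE, adjusted p = 0.0944). Stat2, the STAT protein particular to that complex, read 149, 136 and 151 against 143, 149 and 154, with overlapping groups (log2 fold change 0.027 ± 0.08 SE, adjusted p = 0.861). Irf1, the factor typical of interferon-gamma, was lower on all 3 tumour arrays, at 1986, 2015 and 1887 against 2566, 2435 and 2090.3, without passing (log2 fold change -0.26 ± 0.10 SE, adjusted p = 0.14).

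Among the effectors, the 2′-5′ oligoadenylate synthetase Oas2, whose product activates RNase L, had the largest log2 fold change of the 38 members. It read 175, 184 and 235 in wildtype lung and 984, 722 and 1318 in the tumours, 4.68-fold higher (log2 fold change 2.23 ± 0.23 SE, adjusted p = 0.00573). Its relatives Oasl2 (log2 fold change 1.83 ± 0.27 SE, adjusted p = 0.0117), Oas1a (log2 fold change 1.11 ± 0.22 SE, adjusted p = 0.025) and Oasl1 (log2 fold change 0.83 ± 0.17 SE, adjusted p = 0.0256) were also higher. Oas3 read 24.2, 1 and 3.82 in tumours and 1 on every wildtype array, too dim for a comparison.

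Ifit1, which binds viral RNA that lacks the host cap methylation, rose from 409, 390.1 and 386 to 1394, 964 and 1256 (log2 fold change 1.56 ± 0.14 SE, adjusted p = 0.00492). Its relatives gave other values. Ifit3 read 717, 758 and 839 against 978, 804 and 783 (log2 fold change 0.14 ± 0.12 SE, adjusted p = 0.472), and Ifit2 read 539.7, 444 and 491 against 373, 465 and 282 (log2 fold change -0.41 ± 0.18 SE, adjusted p = 0.197). Both overlapped between the groups. Of these 3 genes of 1 family, Ifit1 and Ifit3 carry the same core letters. The gamma type gene Gbp2, which was lower in tumours, carries these letters as well.

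The receptor-transporter protein Rtp4, a type I induced brake on flavivirus replication, read 866, 909.8 and 905 in wildtype and 2195, 1792 and 2269 on the tumour arrays (log2 fold change 1.2 ± 0.11 SE, adjusted p = 0.00486). Usp18, which removes ISG15 from proteins and dampens the type I receptor, read 517, 504 and 550.5 against 1669.6, 1116 and 1854 (log2 fold change 1.5 ± 0.19 SE, adjusted p = 0.00918). The exonuclease Isg20 read 898, 926 and 656 against 2313, 1780.5 and 2409.6 (log2 fold change 1.38 ± 0.18 SE, adjusted p = 0.00938). None of these 3 genes had overlapping groups. The dynamin-like GTPases Mx1 (log2 fold change 1.26 ± 0.20 SE, adjusted p = 0.0135) and Mx2 (log2 fold change 0.98 ± 0.20 SE, adjusted p = 0.025), and Samd9l, a restriction factor of poxviruses (log2 fold change 0.42 ± 0.094 SE, adjusted p = 0.0336), completed the effectors that were higher. Members that missed the threshold included viperin (Rsad2, log2 fold change 0.59), protein kinase R (Eif2ak2, 0.38), Cmpk2, which lies beside Rsad2 (0.25), and tetherin (Bst2, 0.10).

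Of the 5 cytosolic sensor genes, 1 passed in the tumours, as higher, where 9.23% of all genes were called higher. RIG-I (Ddx58) had a log2 fold change of 0.065, MDA5 (Ifih1) of 0.049, the Z-nucleic acid sensor Zbp1 of 0.052 and the RIG-I ubiquitin ligase Trim25 of -0.089, and none passed. Dhx58, the regulator LGP2, was the exception at 111, 86.5 and 102 against 51.8, 56.1 and 74.4 (log2 fold change 0.60 ± 0.14 SE, adjusted p = 0.0393). That call rested on 1 of 3 probe sets, since the other two gave -0.089 and -0.42. Zbp1 had a second, dimmer probe set that was higher in tumours (0.87, adjusted p = 0.0143 over all probe sets).

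The gamma type genes of the tumours leaned the other way. Gbp2, a guanylate-binding protein that attacks vacuoles of intracellular pathogens, read 1058, 944 and 1205 in wildtype and 825, 590.0 and 536 on the tumour arrays (log2 fold change -0.72 ± 0.18 SE, adjusted p = 0.0462). Psmb9, an immunoproteasome subunit, read 1207, 1056 and 1298 against 923, 836 and 918 (log2 fold change -0.40 ± 0.10 SE, adjusted p = 0.0495). Both were lower on all 3 tumour arrays, as were Gbp3 (log2 fold change -0.33 ± 0.094 SE, adjusted p = 0.0632), Psmb8 (log2 fold change -0.30 ± 0.10 SE, adjusted p = 0.104) and Irf1. In all, 5 of 8 gamma type members were lower without overlap, where 17.0% of all genes were, and 17 of 27 type I members were higher without overlap, where 20.5% of all genes were. Irgm1, an immunity-related GTPase that guards the cell's own membranes, was the exception at 1485, 1458 and 1607 against 1261, 1091 and 1151 (log2 fold change 0.37 ± 0.091 SE, adjusted p = 0.042). The related GTPase Igtp (-0.16) and the peptide transporter Tap1 (-0.17) overlapped between the groups. For Tap1 the 3 other, dimmer probe sets went the opposite way, of which 2 passed over all probe sets (0.69, adjusted p = 0.0294, and 0.66, adjusted p = 0.0271) and 1 did not (0.13), so its direction differed between probe sets. Of the 15 members with several probe sets, 8 had one of opposite sign in the tumour comparison. They included Eif2ak2, whose other two gave -0.10 and -0.34, and Cmpk2, whose other gave -0.22, none of which passed.

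The tumour calls were then repeated with fewer arrays. When each of the 6 arrays was left out in turn, Irgm1 and Psmb9 kept their calls in 0 of 6 fits and Gbp2 in 1 of 6. Ifit1, Irf7, Usp18, Oas2, Rtp4, Isg20 and Oasl2 kept theirs in 6 of 6, and Mx1 in 5 of 6. The other type I calls were mostly lost, with Oas1a, Mx2 and Dhx58 kept in 2 of 6 fits and Oasl1 and Samd9l in 1 of 6. Against the 1 wildtype array that, like the tumours, lacked Xist, 11 type I and 0 gamma type members were called, and with sex as a block 0 members were called among 1 gene in all. T and NK cell markers, of which 2 of 10 were called lower, summed to 1934, 2484 and 1847 on the tumour arrays and 3522, 3418 and 2178 on the wildtype arrays. These sums overlapped, and the part of T and NK cells in the gamma type values was not tested. Ncr1, which marks NK cells, was not at 0 but lower (log2 fold change -0.92 ± 0.18 SE, adjusted p = 0.0252).

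**Figure D1:**
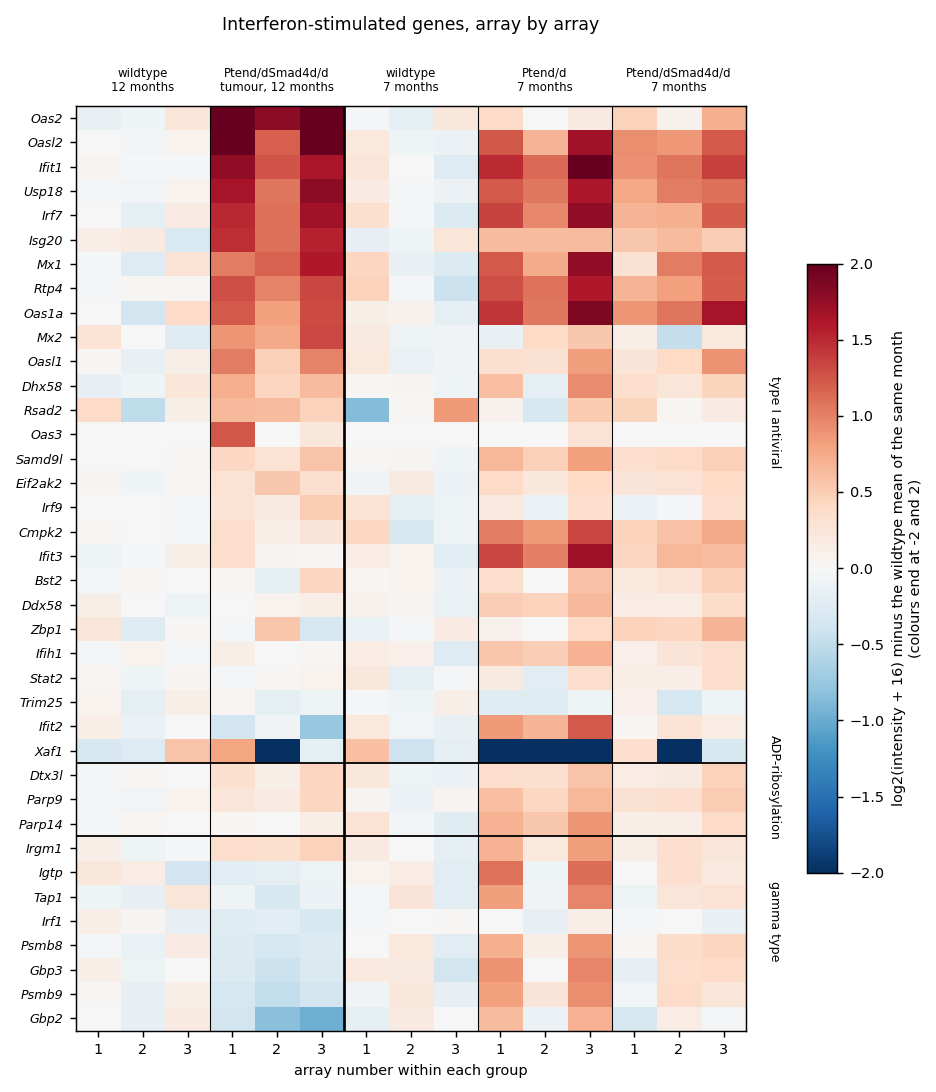
Each row is 1 of the 38 measured genes and each column 1 of the 15 arrays, coloured by log2(intensity + 16) minus the wildtype mean of the same month, with red above and blue below it. In the tumour columns most type I rows from Oas2 to Samd9l are red and most gamma type rows are pale blue, while in the Ptend/d columns both classes are red on arrays 1 and 3 but the gamma type rows are near white on array 2.

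At 7 months, Ptend/dSmad4d/d lung had type I genes above wildtype as well. Of the 38 members 8 were higher and 0 lower, where 6.42% of all genes were called higher and 1.39% lower. They were the type I members Usp18, Isg20, Oas1a, Ifit1, Oasl2, Samd9l and Zbp1, and the ADP-ribosyltransferase family member Parp9. The median log2 fold change was 0.399 over the type I members and 0.183 over the gamma type members, of which 0 passed in limma, adjusted or not. On the same arrays 5 of 8 epithelial markers were called higher (median log2 fold change 0.608) and 2 of 8 endothelial markers lower (median -0.308), and their part in the interferon gene values was not tested.

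Usp18 read 496, 427 and 403 in 7-month wildtype lung and 760.0, 908 and 968 in Ptend/dSmad4d/d lung (log2 fold change 0.96 ± 0.15 SE, adjusted p = 0.00617). Ifit1 read 378, 319 and 264 against 611, 685 and 845 (log2 fold change 1.12 ± 0.22 SE, adjusted p = 0.0186), and Oas1a had the largest log2 fold change of the class (log2 fold change 1.2 ± 0.24 SE, adjusted p = 0.0185). In each of these genes all 3 mutant arrays lay above all 3 wildtype arrays. Irf7 did so as well, at 463, 473 and 670.1 against 356, 273 and 229, but missed the threshold (log2 fold change 0.87 ± 0.24 SE, adjusted p = 0.064), as did Rtp4 (log2 fold change 0.91 ± 0.24 SE, adjusted p = 0.0555). Non-overlapping higher values were found for 16 of 27 type I members and 0 of 8 gamma type members, against 15.2% of all genes, and lower ones for 0 of 38 members against 10.9%. Only Usp18 of the 8 kept its call in all 9 fits with 1 array left out.

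Of the ADP-ribosylation genes, Parp9 and its partner ubiquitin ligase Dtx3l act in DNA repair and antiviral defence, and Parp14 is a mono-ADP-ribosyltransferase studied in macrophages and B cells. Parp9 read 538, 473 and 536 in wildtype and 639, 655 and 739 in Ptend/dSmad4d/d lung (log2 fold change 0.38 ± 0.093 SE, adjusted p = 0.0415). Parp14 (log2 fold change 0.22 ± 0.15 SE, adjusted p = 0.441) and Dtx3l (log2 fold change 0.26 ± 0.13 SE, adjusted p = 0.263) did not pass. By its chosen probe set, Zbp1 was called here and in no other comparison (log2 fold change 0.53 ± 0.12 SE, adjusted p = 0.0366). That call was kept in 3 of 9 fits with 1 array left out. The second, dimmer probe set of Zbp1 gave 0.81 here and 0.88 in Ptend/d lung, without passing in either. In tumours it gave 0.87 and passed over all probe sets, so the pattern of Zbp1 differed between probe sets.

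In Ptend/d lung at 7 months, type I and ADP-ribosylation genes were higher, and most gamma type genes lay above wildtype on 2 of 3 arrays. Of the 38 members 19 were higher and 1 lower, where 9.79% of all genes were called higher and 5.40% lower. The 19 comprised 15 type I members, 2 gamma type members (Irgm1 and Psmb9) and 2 ADP-ribosylation members (Parp9 and Parp14). When each of the 9 arrays was left out in turn, Irgm1 kept its call in 1 of 9 fits, Psmb9 in 2, Eif2ak2 in 1 and Mx1 in 5. The rest of the 19 kept theirs in 8 or 9 fits, and Xaf1, the member called lower, in 3. The median log2 fold change was 0.53 over the type I members, 0.583 over the gamma type members and 0.56 over the ADP-ribosylation members. This comparison and the one with Ptend/dSmad4d/d lung use the same 3 wildtype arrays, so their values are set side by side and not read as independent. Here too 5 of 8 epithelial markers were called higher (median 0.453) and 2 of 8 endothelial markers lower (median -0.191), which was likewise not tested as a part of the result.

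Usp18 had the lowest p-value, with 1053, 928 and 1378 in Ptend/d lung against 496, 427 and 403 in wildtype (log2 fold change 1.3 ± 0.15 SE, adjusted p = 0.00101). Ifit3 read 1149, 908 and 1479.5 against 495, 470.5 and 378 (log2 fold change 1.35 ± 0.17 SE, adjusted p = 0.00149), and Ifit2 read 791, 697 and 1032 against 498, 413 and 387 (log2 fold change 0.92 ± 0.15 SE, adjusted p = 0.00449). Ifit1 was higher too (log2 fold change 1.54 ± 0.22 SE, adjusted p = 0.00265), so the 3 Ifit genes were all higher here, unlike in the tumours. Samd9l read 1933, 1696 and 2173 against 1240.4, 1270.1 and 1146 (log2 fold change 0.65 ± 0.10 SE, adjusted p = 0.00271).

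Irf7 read 742, 564 and 1001 against 356, 273 and 229 (log2 fold change 1.36 ± 0.24 SE, adjusted p = 0.00623), and Irf9 (log2 fold change 0.14 ± 0.18 SE, adjusted p = 0.683) and Stat2 (log2 fold change 0.10 ± 0.16 SE, adjusted p = 0.744) overlapped between the groups. The sensors Ddx58 (log2 fold change 0.53 ± 0.095 SE, adjusted p = 0.00694) and Ifih1 (log2 fold change 0.58 ± 0.12 SE, adjusted p = 0.0147) passed in this comparison. Further effectors that were higher were Oas1a, Cmpk2, Rtp4, Isg20, Oasl2, Mx1 and Eif2ak2, with log2 fold changes of 1.45, 1.07, 1.33, 0.63, 1.2, 1.25 and 0.34. Oas2 was not among them, at 496, 378 and 431 against 366, 331 and 441 (log2 fold change 0.19 ± 0.17 SE, adjusted p = 0.526).

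Xaf1, an interferon-induced antagonist of the apoptosis inhibitor XIAP, was the 1 member called lower. Its chosen probe set read 1641, 798 and 944 in wildtype and 82.9, 92.5 and 88.4 in Ptend/d lung (log2 fold change -3.39 ± 0.90 SE, adjusted p = 0.0376). The same probe set read 1354, 63.8 and 861 in Ptend/dSmad4d/d lung and 1516, 101 and 760.2 in tumours, so single arrays of those groups were as low as all 3 of the Ptend/d group. The second probe set of the gene was higher in Ptend/d lung (1.53, adjusted p = 0.0242 over all probe sets), and the mean of both was not called (log2 fold change -0.93). The direction of Xaf1 thus differed between probe sets. Parp14, called at 0.70, had a second, dimmer probe set at -0.049 that did not pass.

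The gamma type members split the Ptend/d arrays. Igtp read 2171, 942 and 2224 in Ptend/d lung against 1063, 1123 and 878 in wildtype, so arrays 1 and 3 were above every wildtype array and array 2 was within the wildtype range (log2 fold change 0.70 ± 0.30 SE, adjusted p = 0.162). Psmb9 read 1279, 867 and 1385 against 686, 846 and 638 (log2 fold change 0.67 ± 0.19 SE, adjusted p = 0.0494), and Irgm1 read 1309, 933 and 1444 against 906, 805 and 701 (log2 fold change 0.59 ± 0.16 SE, adjusted p = 0.0438). In both genes array 2 was the lowest of its group. Irf1 did not follow, at 2277, 2021 and 2484 against 2224, 2284 and 2298 (log2 fold change -0.0098 ± 0.083 SE, adjusted p = 0.961).

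As a median over the 8 gamma type members, the 3 Ptend/d arrays lay 0.764, -0.035 and 0.908 log2 units from the wildtype mean, while over the 27 type I members they lay 0.558, 0.454 and 0.691 above it. T and NK cell markers summed to 3703, 2152 and 5704 on those arrays and 4136, 3017 and 2445 on the wildtype arrays, so array 2 of Ptend/d lung was the lowest of its group there as well. On the Ptend/dSmad4d/d arrays the sums were 2575, 3136 and 2126.5, with gamma type medians of -0.045, 0.339 and 0.236. The gamma type medians of the wildtype arrays were -0.013, 0.178 and -0.196. Without Ptend/d array 2, 7 of 8 gamma type members and 25 of 38 members were called higher in Ptend/d lung, and without Ptend/d array 3 the numbers were 0 and 13. The part of T and NK cells in this was not tested. B cell markers had medians of 0.666, 0.395 and 0.939 log2 units above wildtype on the 3 Ptend/d arrays, and 2 of 5 passed, with Cd79b among them (log2 fold change 0.99 ± 0.15 SE, adjusted p = 0.00333). Values of Ptend/d lung did not overlap those of wildtype and were higher for 21 of 38 members, against 20.0% of all genes, and were lower for 1, against 15.6%.

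**Figure D2:**
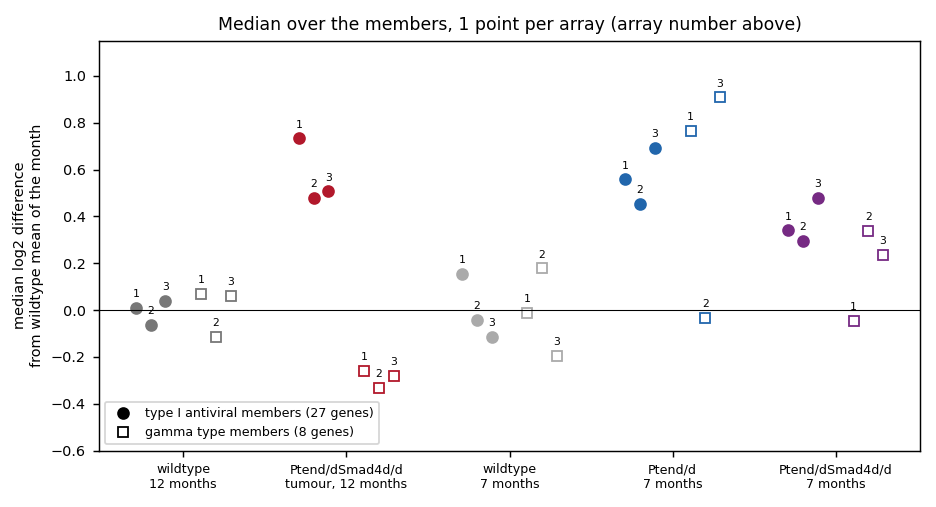
Each point is 1 array, placed at the median difference from the wildtype mean of its month in log2(intensity + 16) over the 27 type I members (filled circles) or the 8 gamma type members (open squares), with the array number above it. All tumour circles lie above 0.4 and all tumour squares below -0.2, and the Ptend/d square of array 2 lies near 0 beside 0.764 and 0.908 for the other two.

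Set against each other directly, the mutant lungs at 7 months differed in 1 of 38 members. Ifit2 was lower in Ptend/dSmad4d/d lung, at 442, 520.3 and 479 against 791, 697 and 1032 (log2 fold change -0.77 ± 0.15 SE, adjusted p = 0.0457), where 0.918% of all genes were called higher and 0.841% lower. This call was lost in 8 of 9 fits with 1 array left out. Ifit3 was lower by a similar amount, at 602, 711 and 689 against 1149, 908 and 1479.5 (log2 fold change -0.78 ± 0.17 SE, adjusted p = 0.0698), and missed the threshold, as did Parp14 (log2 fold change -0.49 ± 0.15 SE, adjusted p = 0.153). Ddx58, Ifih1, Samd9l and Cmpk2 also read lower on all 3 Ptend/dSmad4d/d arrays, while Zbp1 read higher on all 3 (log2 fold change 0.37 ± 0.12 SE, adjusted p = 0.181). In all, 7 of 38 members were lower and 1 was higher without overlap. Of all 18193 genes 2581 were lower and 2618 higher in this way, so such members were not far from the background. The median difference was -0.192 over the type I members and -0.435 over the gamma type members, where 10 of 38 members had an unadjusted p under 0.05. Usp18 (-0.33), Irf7 (-0.49) and Oas1a (-0.25) did not pass, which does not show that the 2 genotypes are alike.

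Whether the tumour difference exceeded the 7-month difference of the same genotype was tested as a difference of 2 differences over all 15 arrays. Oas2 alone of the 38 passed, being 1.81 log2 units higher in the tumour comparison (adjusted p = 0.00869), where 1.75% of all genes passed higher and 1.41% lower. At 7 months Oas2 had read 366, 331 and 441 in wildtype and 523, 403 and 627 in Ptend/dSmad4d/d lung, with overlapping groups (log2 fold change 0.42 ± 0.17 SE, adjusted p = 0.188). Its mean was 198 in wildtype lung at 12 months and 379 at 7 months, and 1008 in tumours and 517 in 7-month Ptend/dSmad4d/d lung. The difference of effects thus includes a lower wildtype level at 12 months as well as a higher level in tumours. Isg20 was next by p-value (0.82, adjusted p = 0.0515), and Mx2 (1.03, adjusted p = 0.0991) did not pass. The gamma type members had a median of -0.432 and the type I members one of 0.256. Age, the kind of tissue taken and the sex pattern of the arrays differ between the 2 time points. The series also describes the arrays of each month as a study of their own. These differences cannot be told apart in this contrast.

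**Figure D3:**
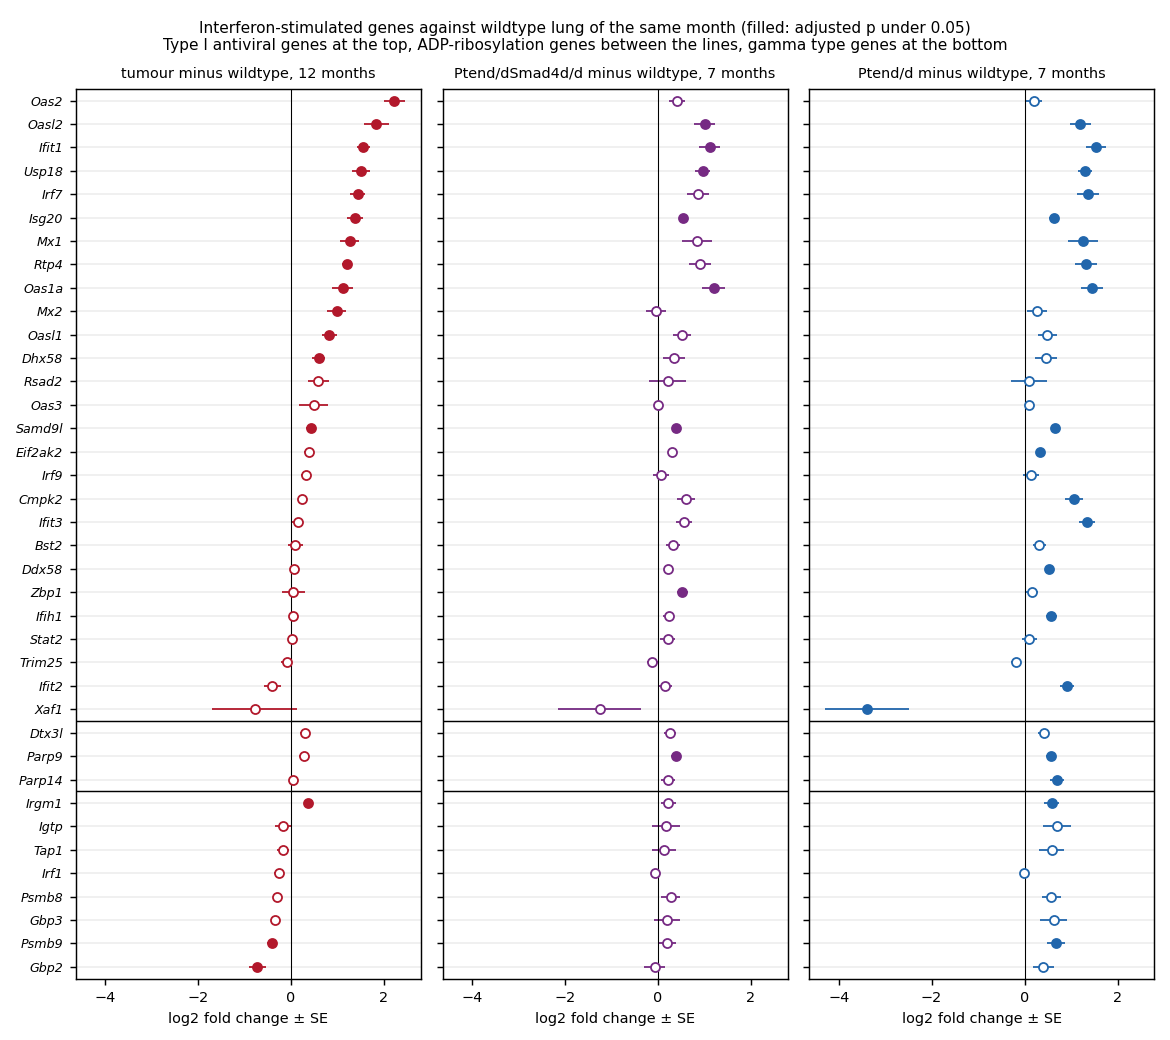
Points give the log2 fold change of each of the 38 members against wildtype lung of the same month, with bars of 1 SE, for tumours, Ptend/dSmad4d/d lung and Ptend/d lung from left to right on 1 shared axis. Filled points passed an adjusted p under 0.05: 16 in tumours, 8 in Ptend/dSmad4d/d lung and 20 in Ptend/d lung, with Oas2 at 2.23 the farthest right and Xaf1 at -3.39 the farthest left.

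Of the 10 interferon genes measured, 9 read at most 86.7 on all 15 arrays, under the median intensity of every array, and Ifnz read 51 to 225. Ifnb1, the interferon first made by infected cells, read 18.7 to 47.8 over the 15 arrays and Ifng read 21.3 to 45, and neither passed in any comparison. Of these 10 ligand genes 0 passed in limma in tumours or in Ptend/dSmad4d/d lung (0 and 1 at an unadjusted p under 0.05) and 1, Ifnz, in Ptend/d lung (log2 fold change 0.64 ± 0.16 SE, adjusted p = 0.0303). Ifnz kept that call in 5 of 9 fits with 1 array left out, and 9.79% of all genes were called higher in that comparison. Of 6 receptor genes, 2 were called lower in tumours, where 6.02% of all genes were. With single arrays left out, though, Ifnar2 kept its call in 1 of 6 fits and Il10rb in 0 of 6. Ifnar2, a chain of the type I receptor, read 1275, 1527 and 1383 against 1865, 1782 and 2034 (log2 fold change -0.44 ± 0.10 SE, adjusted p = 0.0367), and Il10rb, which serves interferon-lambda and interleukin-10, read 2196, 2222 and 2229 against 2716, 2718 and 2799.6 (log2 fold change -0.31 ± 0.07 SE, adjusted p = 0.0358). Ifnar1 (-0.13), Ifngr1 (0.06) and Ifngr2 (-0.38) did not pass. At 7 months 0 of 6 receptor genes passed in limma in Ptend/dSmad4d/d or Ptend/d lung, where 1 and 3 had an unadjusted p under 0.05. Of 10 genes of the JAK-STAT chain and its inhibitors 0 passed in tumours, Ptend/dSmad4d/d lung or Ptend/d lung, where 1, 0 and 4 had such a p.

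Of 11 other nucleic acid sensing genes, 1 was called higher and 3 lower in tumours, where 9.23% of all genes were called higher and 6.02% lower. The adaptor Sting1 was higher at 688, 634 and 688 against 474, 439.5 and 468 (log2 fold change 0.53 ± 0.08 SE, adjusted p = 0.0123), while the endosomal RNA receptor Tlr7 (log2 fold change -2.07 ± 0.37 SE, adjusted p = 0.0189), the kinase Tbk1 (log2 fold change -0.36 ± 0.075 SE, adjusted p = 0.0285) and the DNA sensor Aim2 (log2 fold change -0.54 ± 0.12 SE, adjusted p = 0.0348) were lower. With single arrays left out, Sting1 kept its call in 6 of 6 fits, Tlr7 in 4, Tbk1 in 1 and Aim2 in 0. The kinase Ikbke was the 1 gene of the list that was higher in Ptend/dSmad4d/d lung (log2 fold change 0.42 ± 0.065 SE, adjusted p = 0.00528), where 6.42% of all genes were. In Ptend/d lung Tlr3 (log2 fold change 0.31 ± 0.059 SE, adjusted p = 0.00941) and Mavs (log2 fold change 0.26 ± 0.072 SE, adjusted p = 0.0422) were higher and Tbk1 was lower (log2 fold change -0.26 ± 0.06 SE, adjusted p = 0.0227). Of all genes 9.79% were called higher and 5.40% lower in Ptend/d lung. There Tlr3 kept its call in 9 of 9 fits with 1 array left out, Tbk1 in 6 and Mavs in 1.

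A list of 30 further type I induced genes, which are not members, had 6 higher and 0 lower in tumours, 3 and 0 in Ptend/dSmad4d/d lung, and 6 and 1 in Ptend/d lung. The shares over all genes in these comparisons were 9.23% and 6.02%, 6.42% and 1.39%, and 9.79% and 5.40%, so 3 of 30 was near the background. Ifi27 passed in all 3 comparisons, with log2 fold changes of 0.71, 0.59 and 0.76. In tumours the others with the lowest p-values were Ifi44l (log2 fold change 1.2 ± 0.20 SE, adjusted p = 0.0163), Pml, the organiser of nuclear bodies (log2 fold change 1.19 ± 0.21 SE, adjusted p = 0.0192), and Ifitm1, which blocks viral entry (log2 fold change 0.81 ± 0.16 SE, adjusted p = 0.0259). Lgals3bp (log2 fold change 1.11 ± 0.16 SE, adjusted p = 0.00326) and Ifitm1 (log2 fold change 0.95 ± 0.15 SE, adjusted p = 0.00488) passed in Ptend/dSmad4d/d lung. In Ptend/d lung Lgals3bp (log2 fold change 1.11 ± 0.16 SE, adjusted p = 0.00242), Parp12 (log2 fold change 0.46 ± 0.088 SE, adjusted p = 0.00956) and Phf11d (log2 fold change 0.86 ± 0.17 SE, adjusted p = 0.0127) were higher and Ifitm2 was lower (log2 fold change -0.38 ± 0.084 SE, adjusted p = 0.0168). With single arrays left out, the tumour call of Ifi44l was kept in 5 of 6 fits, Ifi27 in 4, Pml and Ifitm1 in 2, and Ifi204 and Ifi27l2a in 1. The 3 calls in Ptend/dSmad4d/d lung were kept in 9 of 9 fits, as were Ifi27, Lgals3bp and Parp12 in Ptend/d lung. There Phf11d kept its call in 7 fits, Ifitm2 in 5, Ly6e in 3 and Trim21 in 1. The medians of this list were 0.115, 0.102 and 0.232, below those of the type I members in the same comparisons.

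The 22 further gamma induced genes had 0 higher and 5 lower in tumours, against 9.23% and 6.02% of all genes, with a median of -0.2. Cd274, the checkpoint ligand PD-L1, read 661, 571 and 465 in tumours against 1916, 1763 and 2126 in wildtype, 3.38-fold lower (log2 fold change -1.76 ± 0.15 SE, adjusted p = 0.00435). Macrophage markers such as Itgax were lower on the same arrays (log2 fold change -2.09 ± 0.32 SE, adjusted p = 0.0127), and their part in this was not tested. Gbp6 (log2 fold change -0.83 ± 0.13 SE, adjusted p = 0.0142), Gbp7 (log2 fold change -0.64 ± 0.12 SE, adjusted p = 0.0211), Tapbpl (log2 fold change -0.54 ± 0.10 SE, adjusted p = 0.0179) and the immunoproteasome subunit Psmb10 (log2 fold change -0.31 ± 0.076 SE, adjusted p = 0.0432) were the other four. With single arrays left out, Cd274 kept its call in 6 of 6 fits, Gbp6 in 3, Gbp7 in 2, Tapbpl in 1 and Psmb10 in 0. In Ptend/dSmad4d/d lung 0 of 22 passed in limma, adjusted or not, and in Ptend/d lung Ifi47, an immunity-related GTPase, was the 1 that did (log2 fold change 0.70 ± 0.17 SE, adjusted p = 0.0303). Ifi47 kept that call in 5 of 9 fits with 1 array left out. In that comparison 9.79% of all genes were called higher, so 1 of 22 was not above the background.

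**Figure D4:**
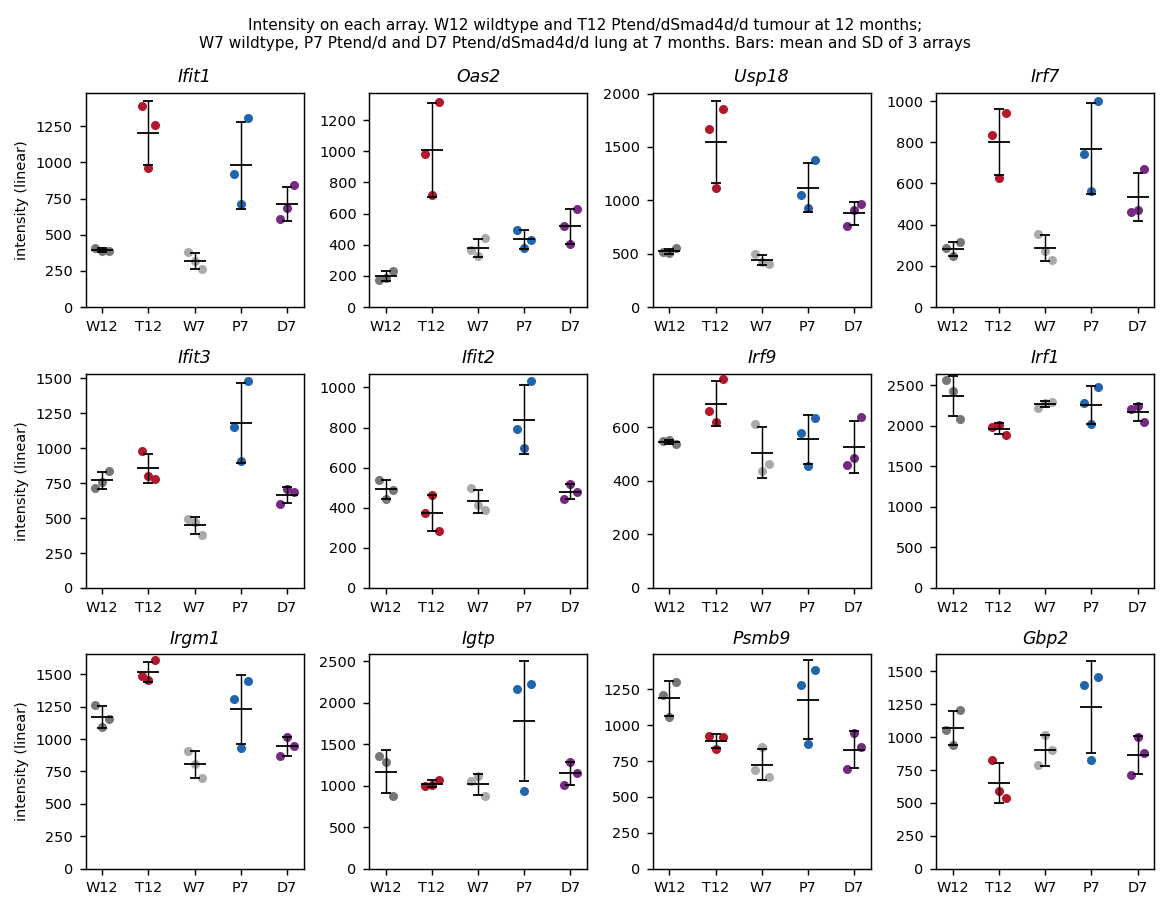
Intensity on a linear axis from 0 for 12 members, with 1 point per array and bars for the mean and SD of 3 arrays in the groups named above the panels. Oas2 is high in the tumours at 722 to 1318 and between 331 and 627 in all 7-month groups, Ifit2 and Ifit3 are highest in Ptend/d lung, and Igtp, Psmb9 and Gbp2 have 2 high arrays and 1 low array in Ptend/d lung.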

How the data were processed

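Total RNA was extracted with TRIzol and RNeasy and made into biotinylated cRNA by the Affymetrix 3′ IVT Express protocol, per the labels. The deposited probe set intensities are on a linear scale, and their array medians lie close together, which the authors' scaling may have set. Background correction, summarization and scaling are not given in the sources used here. The array depth cannot be read from such values, and 3 arrays in each group limit the precision.

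Of 45101 probe sets, 34945 carried 1 gene symbol, 932 several and 9224 none used here. Each of 18193 genes was represented by its probe set with the highest mean of log2(intensity + 16) over 15 arrays, so the log2 values were computed from the deposited intensities, and 16 was the pseudocount. Other probe sets are named for the members whose printed values turn on them.

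Each month was fitted on its own with limma 3.58.1 in R 4.3.3 (lmFit and eBayes, 6 arrays at 12 months and 9 at 7 months), and the difference of the 2 Ptend/dSmad4d/d effects over 15 arrays. P-values were adjusted by Benjamini-Hochberg over all genes, and an adjusted p under 0.05 counted as called. Scripts were tested on simulated data. Samples were grouped by their labels.

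The members and lists were chosen with earlier results of these data known. Values by array are given for the 4 members with the lowest p-values in tumours, the 4 lowest at 7 months, Irf7, Irf9, Stat2, Irf1 and the 3 gamma type members with the highest level. Values of further members were added after they were seen, among them Ifit2, Oas2 at 7 months, Xaf1, Gbp2, Psmb9 and Dhx58. Other lists give up to 4 called genes with the lowest p-values. Alternatives covered scaling, pseudocount, dim genes, probe set choice, variance model, array weights, sex, the arrays in the fit, the replicate block and single arrays left out. Results that needed genes without a usable probe set are not reported here.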

Additional observations from a re-analysis of the deposited data

Results flagged for a closer look

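Oas2 differed between the tumour effect and the 7-month effect of the same genotype by 1.8065 log2 units in limma's test of that difference. With the 12-month wildtype arrays that carry Xist left out, the difference was 1.8912 with an adjusted p of 0.06885.

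Cd274 differed in the same test by -1.6086 log2 units, being lower in tumours against wildtype and not called at 7 months. Without the wildtype arrays with Xist the value was -1.4795 with an adjusted p of 0.1387.

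Il10rb differed by -0.3695 log2 units in that test, and it kept its call in 2 of 15 fits with 1 array left out.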

How the results depend on the processing

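The tumour comparison called 14 members higher and 2 lower. With sex as a block it called 0 higher and 0 lower, where 16 members had an unadjusted p under 0.05. The number lower was 0 at pseudocount 1 and with array weights, and 1 without _x_at and _s_at probe sets. With single arrays left out it called 8 to 14 higher and 0 to 1 lower. Against the 1 wildtype array without Xist, in a fit of all 15 arrays, the median was 0.487 over the type I members and -0.235 over the gamma type members. Ptend/dSmad4d/d lung at 7 months had 8 higher, but 5 at pseudocount 1, 5 with only the 2 groups compared and 2 with array weights, and 2 to 8 with single arrays left out. Ptend/d lung had 19 higher and 1 lower, with 0 lower at pseudocount 1, with the mean of all probe sets and with the variance trend, and 13 to 25 higher and 0 to 1 lower with single arrays left out. The direct contrast of the 2 genotypes had 1 lower. That number was 0 at pseudocount 1 and with only the 2 groups compared, 2 at pseudocount 64, without dim genes and with the variance trend, 3 with array weights, and 0 to 1 higher and 0 to 2 lower with single arrays left out. The difference of effects had 1 higher, but 3 at pseudocount 64, 2 without dim genes, with the variance trend and with array weights, 0 without wildtype arrays with Xist, and 1 to 4 with single arrays left out. The replicate numbers of the labels did not pair the 7-month arrays, since same-numbered deviations correlated at -0.128 to 0.161, and the replicate block gave 7 members higher in Ptend/dSmad4d/d lung, 15 higher and 1 lower in Ptend/d lung, and 0 lower in the direct contrast. Ly6e in Ptend/d lung changed sign without _x_at and _s_at probe sets (-0.0158, adjusted p = 0.968, from 0.2837). For changed values that no alternative's own construction shows, the cause was not tested. Dim genes such as Oas3 lie near the lowest intensity, so differences there could not be detected.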
